A study of Mus musculus with 31 samples.

Results

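Cdh1, Nav2, Fuom, Unc13b, Wfdc2, Lrtm1, As3mt, Arl4d and Egfr are 9 genes that were picked by how consistently their RNA differed between livers of ERRα knockout mice and wild-type (WT) livers. They are 9 of the 35275 genes counted in an insulin experiment and of the 54532 counted in a second experiment on ERRα3SA mice, and each was found in both by its Ensembl identifier. The contrast between knockout and WT liver chose them, so their values in that contrast are given as a description, without a test. Their response to ERRα3SA comes from other samples, did not enter the choice and was tested. Their response to insulin was tested too, but in the same livers that chose the genes. Those tests are therefore not independent of the choice.

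ERRα, encoded by Esrra, is an orphan nuclear receptor that binds DNA at the letters TCAAGGTCA and close variants and works with the coactivators PGC-1α and PGC-1β. It is best known for raising the transcription of genes of oxidative phosphorylation, the citric acid cycle and fatty acid oxidation in tissues with a high energy demand. In liver it also takes part in the control of gluconeogenesis and lipid handling.

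RNA was sequenced from 31 samples of mice of the strain C57BL/6N fed a standard diet. In the insulin experiment, male mice of 2 to 3 months, WT or lacking ERRα in the whole body (ERRα-/-), fasted for 12 h and received an injection of saline or of 1 unit per kg of insulin into the peritoneum, and livers were taken 4 h later. There were 4 livers of WT mice with saline, 4 of WT mice with insulin, 4 of ERRα-/- mice with saline and 3 of ERRα-/- mice with insulin, whose replicates are numbered 1, 2 and 4. In the second experiment, liver and skeletal muscle (gastrocnemius and soleus) came from mice with a CRISPR knock-in that replaces 3 serines of ERRα by alanine (ERRα3SA) and from their WT littermates, with 4 samples in each of the 4 groups. These mice too were male and 2 to 3 months old by the paper's general methods, which hold where nothing else is stated. For those mice the labels give neither an injection nor a feeding state at collection. The samples hold from 35871419 to 48317108 counts in the insulin experiment and from 20481405 to 33412022 in the ERRα3SA experiment. Levels are counts scaled to library size (CPM), each experiment scaled on its own, and they were not tested between experiments.

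The labels could be checked with Esrra itself. With saline, its level in the 4 WT livers was 32.3, 51.3, 42.7 and 40.5 CPM and in the 4 ERRα-/- livers it was 1.63, 0.703, 1.15 and 1.04 CPM. With insulin, the WT livers stood at 53.7, 96.4, 56.1 and 59.0 CPM and the ERRα-/- livers at 0.833, 0.576 and 0.298 CPM. Every ERRα-/- liver was far below every WT liver, with a log2 fold change of -5.20 ± 0.24 (SE) with saline and -6.86 ± 0.37 with insulin. The related receptors Esrrb and Esrrg had low levels in the 15 livers, Esrrb from 0.55 to 1.34 CPM and Esrrg from 1.08 to 7.55 CPM. In ERRα3SA mice the Esrra level was 29.4, 25.4, 21.1 and 19.2 CPM in liver, against 27.7, 27.1, 28.2 and 29.4 CPM in WT littermates, and the groups overlapped. The tissue labels were borne out by Alb, the albumin gene of hepatocytes, which ranged from 39812 to 82229 CPM in the 23 livers and from 0.0958 to 1.15 CPM in the 8 muscles.

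Some libraries stood apart from their group. ERRα3SA liver replicate 4 had an Alb level of 39812 CPM, against 65502 to 82229 CPM in the other 7 livers of that experiment, and a level of Saa1, an acute-phase gene, of 2084 CPM against 18.8 to 83.3 CPM. In ERRα3SA muscle replicate 1, 19.3% of the counts were from the mitochondrial genome, against 9.15% to 10.8% in the other muscles, and Esrra was at 24.3 CPM against 94.5, 127 and 133 CPM in the other ERRα3SA muscles. ERRα3SA muscle replicate 4 had an Mt1 level of 136 CPM, against 5.62 to 9.44 CPM in the others, and the highest sum of fibroblast markers, 2691 CPM against 1010.1 to 1523 CPM. ERRα3SA liver replicate 4 was also the highest of its tissue in Mt1, 42.4 CPM against 2.23 to 5.49 CPM, and in both tissues replicate 4 had the lowest sum of adipocyte markers, 1151 CPM in liver and 729 CPM in muscle, of which Car3, a gene that liver and muscle express themselves, was the most abundant. Whether a liver and a muscle of 1 number came from 1 mouse is not given. WT liver with insulin replicate 2 had the lowest mitochondrial share of the livers, 1.88%, where the other 14 livers of its experiment had 3.14% to 4.82%. WT liver with insulin replicate 3 had a sum of skeletal muscle fibre markers of 105 CPM against 9.08 CPM or less in the other livers of its experiment, and had the lowest Arl4d and the highest Nav2 level of its group. Among WT livers, replicates 1 and 2 had high Saa1 levels, 754, 2079, 25.5 and 92.8 CPM with saline and 929, 2038, 17.5 and 50.03 CPM with insulin over replicates 1 to 4. The ERRα-/- livers with saline had 289, 231, 37.7 and 1892 CPM, high in replicate 4. RNA of exocrine pancreas was present in some livers: the summed level of 5 acinar markers, of which Ctrb1 was the most abundant in WT livers, was 999, 47.99, 0.0228 and 1402 CPM in WT livers with saline and 232, 19.01, 0.131 and 105 CPM in ERRα-/- livers with saline. It was 8.26, 90.2, 0.120 and 160.5 CPM in WT livers with insulin and 4.55, 0 and 0.570 CPM in ERRα-/- livers with insulin. In the ERRα3SA experiment it was 106, 0.436, 1.07 and 0.937 CPM in WT littermate livers and 548, 0.330, 0.294 and 0.625 CPM in ERRα3SA livers, and in both groups replicate 1 also had the highest Arl4d level. In no group of the insulin experiment did the liver with the highest acinar sum have the highest Arl4d level. The part of these differences in the values below was not tested. The labels number the replicates and name no animals, so the spread is that between samples.

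The genes of the cell surface come first. Cdh1 (ENSMUSG00000000303, chromosome 8, 106603351 to 106670246 in GRCm38) encodes E-cadherin, the calcium-dependent adhesion protein of epithelial adherens junctions. With saline its level was 37.2, 58.4, 39.9 and 24.5 CPM in the WT livers and 3.83, 4.39, 9.03 and 2.93 CPM in the ERRα-/- livers. With insulin it was 34.9, 30.01, 46.1 and 36.8 CPM in the WT livers and 2.498, 5.16 and 3.28 CPM in the ERRα-/- livers. The highest ERRα-/- liver was below the lowest WT liver under both treatments. The mean was 7.93 times lower with saline (5.04 ± 2.72 against 40.0 ± 14.0 CPM, SD, n = 4 and 4) and 10.1 times lower with insulin (3.65 ± 1.37 against 37.0 ± 6.74 CPM, SD, n = 3 and 4). In bulk samples, fewer cells of a type and less RNA per cell cannot be told apart. The 8 markers of cholangiocytes, the other epithelial cells of liver, had sums of 38.4, 35.3, 37.2 and 38.7 CPM in WT and 29.3, 36.4, 37.4 and 35.2 CPM in ERRα-/- livers with saline, which overlapped, with Spp1 the most abundant; 0 of the 6 tested passed the threshold.

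Egfr (ENSMUSG00000020122, chromosome 11, 16752203 to 16918158) encodes the receptor tyrosine kinase for epidermal growth factor. With saline its level was 888, 952, 429 and 431 CPM in the WT livers and 1094, 487, 1153 and 638 CPM in the ERRα-/- livers, and the groups overlapped. The WT livers fell apart into replicates 1 and 2 at 888 and 952 CPM and replicates 3 and 4 at 429 and 431 CPM; the same replicates had high and low Saa1 levels. In the ERRα-/- livers Egfr did not follow Saa1, which was highest in replicate 4 and lowest in replicate 3. With insulin it was 554, 565, 571 and 491 CPM in the WT livers and 1048, 1292 and 1061 CPM in the ERRα-/- livers, which did not overlap, and the WT livers were close together although their Saa1 levels were not. The mean was 1.25 times higher in ERRα-/- livers with saline and 2.08 times higher with insulin. Without ERRα-/- replicate 3 the log2 fold change with saline went from 0.32 to 0.13, and without WT replicate 2 to 0.53.

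Lrtm1 (ENSMUSG00000045776, chromosome 14, 29018208 to 29033645) encodes a transmembrane protein with leucine-rich repeats, and the gene lies inside Cacna2d3 on the opposite strand, with 0 exon bases shared. Saline-treated WT livers had 7.69, 15.4, 2.70 and 10.1 CPM and ERRα-/- livers had 12.5, 24.3, 15.01 and 18.8 CPM. The groups overlapped, since WT replicate 2 was above ERRα-/- replicates 1 and 3. With insulin the levels were 5.66, 5.13, 4.04 and 5.83 CPM and 17.9, 22.6 and 20.2 CPM, and the lowest ERRα-/- liver, at 17.9 CPM, was far above the highest WT liver, at 5.83 CPM. The mean was 1.96 times higher with saline and 3.92 times higher with insulin.

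The genes of vesicle traffic and the cytoskeleton were Unc13b, Arl4d and Nav2. Unc13b (ENSMUSG00000028456, chromosome 4, 43058953 to 43264871) encodes a protein that primes secretory vesicles for fusion. With saline its level was 13.9, 12.2, 17.7 and 8.34 CPM in the WT livers and 34.2, 55.3, 49.4 and 51.6 CPM in the ERRα-/- livers. With insulin it was 13.2, 6.24, 6.84 and 6.81 CPM in the WT livers and 48.7, 39.4 and 47.2 CPM in the ERRα-/- livers. All 7 ERRα-/- livers were above all 8 WT livers. The mean was 3.66 times higher with saline (47.6 ± 9.30 against 13.0 ± 3.87 CPM, SD, n = 4 and 4) and 5.45 times higher with insulin (45.1 ± 4.98 against 8.27 ± 3.30 CPM, SD, n = 3 and 4).

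Arl4d (ENSMUSG00000034936, chromosome 11, 101665541 to 101667832) encodes a small GTPase of the ADP-ribosylation factor-like family, which acts at the plasma membrane. Among mice given saline, WT livers had 22.0, 26.6, 18.8 and 21.2 CPM and ERRα-/- livers had 40.2, 36.7, 41.9 and 36.8 CPM, which did not overlap. Insulin-treated livers had 71.4, 113, 21.4 and 50.7 CPM in WT mice and 65.1, 119.5 and 64.8 CPM in the ERRα-/- livers, and the groups overlapped: WT replicate 3 was low and replicate 2 was near the highest ERRα-/- liver. The mean was 1.75 times higher with saline and 1.30 times higher with insulin. Without ERRα-/- replicate 2 the log2 fold change with insulin went from 0.36 to 0.01, and without WT replicate 2 to 0.79.

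Nav2 (ENSMUSG00000052512, chromosome 7, 48908716 to 49610090) encodes neuron navigator 2, a protein associated with the cytoskeleton. Saline-treated WT livers had 92.0, 83.1, 86.1 and 70.7 CPM and ERRα-/- livers had 45.7, 36.2, 33.4 and 42.4 CPM, which did not overlap. Insulin-treated livers had 37.6, 14.0, 57.2 and 40.0 CPM in WT mice and 21.4, 24.1 and 18.8 CPM in the ERRα-/- livers. There the groups overlapped through WT replicate 2, the library with the low mitochondrial share, whose Nav2 level was under all 3 ERRα-/- livers; without it the log2 fold change went from -0.80 to -1.07, and without WT replicate 3 to -0.52.

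Wfdc2 (ENSMUSG00000017723, chromosome 2, 164562413 to 164568510) encodes a secreted protein with whey acidic protein domains that is made by epithelia. In the saline groups WT livers had 0.906, 0.412, 0.937 and 2.08 CPM, or 15 to 90 counts, and ERRα-/- livers had 6.35, 8.12, 9.68 and 9.82 CPM, or 242 to 445 counts. Insulin-treated livers had 1.59, 1.25, 2.34 and 1.80 CPM in WT mice and 6.89, 3.21 and 3.88 CPM in the ERRα-/- livers. Every ERRα-/- liver was above every WT liver, but the distance was smaller with insulin. The mean was 7.84 times higher with saline and 2.67 times higher with insulin.

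Promoters from 250 bases before to 50 bases after the start were read from RefSeq on GRCm38.p6 for 8 of the 9 genes, 11 promoters in all (Cdh1 has no entry and was not searched), and searched on both strands for TCAAGGTCA, AAGGTCA and AGGTCA, each place counted once at the longest match. Of 32851 promoters in the table, 0.423% hold TCAAGGTCA, 4.72% hold AAGGTCA and 16.3% hold AGGTCA. Among the 8 genes, 1 had a match: Wfdc2 holds AGGTCA next to its start. The promoters of the 3 genes whose ERRα-/- livers were above the WT livers under both treatments and that have an entry are shown so that the match can be seen beside its absence. They lie on the plus strand at chr2:164562465-164562764 for Wfdc2, chr4:43058703-43059002 for Unc13b and chr19:46707208-46707507 for As3mt, and capitals mark the matching letters. A match is a description of the letters and not a binding site.
Wfdc2: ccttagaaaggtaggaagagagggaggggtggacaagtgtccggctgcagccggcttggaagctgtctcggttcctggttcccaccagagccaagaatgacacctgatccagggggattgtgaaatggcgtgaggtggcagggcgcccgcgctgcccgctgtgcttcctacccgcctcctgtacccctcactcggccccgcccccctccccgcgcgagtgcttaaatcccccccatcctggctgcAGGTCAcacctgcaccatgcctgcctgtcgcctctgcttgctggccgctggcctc
Unc13b: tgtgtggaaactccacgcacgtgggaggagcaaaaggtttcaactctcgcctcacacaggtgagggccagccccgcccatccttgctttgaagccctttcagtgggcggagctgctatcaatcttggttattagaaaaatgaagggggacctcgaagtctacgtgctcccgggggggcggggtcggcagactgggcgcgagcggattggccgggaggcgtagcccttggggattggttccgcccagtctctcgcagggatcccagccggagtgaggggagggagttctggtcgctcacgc
As3mt: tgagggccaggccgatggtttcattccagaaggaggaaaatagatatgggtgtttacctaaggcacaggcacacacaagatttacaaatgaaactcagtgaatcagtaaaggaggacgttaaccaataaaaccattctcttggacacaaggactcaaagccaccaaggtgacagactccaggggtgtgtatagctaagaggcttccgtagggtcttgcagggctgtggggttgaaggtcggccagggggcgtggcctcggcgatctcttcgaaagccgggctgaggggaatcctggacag

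As3mt and Fuom encode enzymes. As3mt (ENSMUSG00000003559, chromosome 19, 46707458 to 46741099) methylates arsenite with S-adenosylmethionine as the donor. With saline its level was 60.6, 61.7, 48.8 and 53.2 CPM in the WT livers and 115, 104, 124 and 116 CPM in the ERRα-/- livers. With insulin it was 66.6, 89.1, 60.3 and 52.0 CPM in the WT livers and 127, 119 and 112 CPM in the ERRα-/- livers. All 7 ERRα-/- livers were above all 8 WT livers, and the ERRα-/- livers were the tightest of the 9 genes with insulin, with an SD of 6.03% of the mean. The mean was 2.05 times higher with saline and 1.78 times higher with insulin. As3mt is on the chromosome of Esrra, 39.8 megabases away.

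Fuom (ENSMUSG00000025466, chromosome 7, 140096770 to 140102441) encodes fucose mutarotase, which interconverts the anomers of fucose before the sugar is used. Saline-treated WT livers had 10.1, 9.37, 7.08 and 8.32 CPM and ERRα-/- livers had 4.54, 1.92, 7.18 and 4.57 CPM, and the groups overlapped by a narrow margin, 7.18 against 7.08 CPM. Insulin-treated livers had 14.5, 21.4, 10.1 and 12.2 CPM in WT mice and 3.15, 4.03 and 4.23 CPM in the ERRα-/- livers, which did not overlap. The mean was 1.92 times lower with saline and 3.82 times lower with insulin. Fuom shares 169 exon bases, 5.17% of its own, with Prap1 on the opposite strand, and Nav2 shares 295 with Gm2788 on the same strand, so reads on these stretches are uncertain; Prap1 had a mean of 0.00495 CPM and Gm2788 one of 10.2 CPM in the livers of the insulin experiment.

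**Figure D1:**
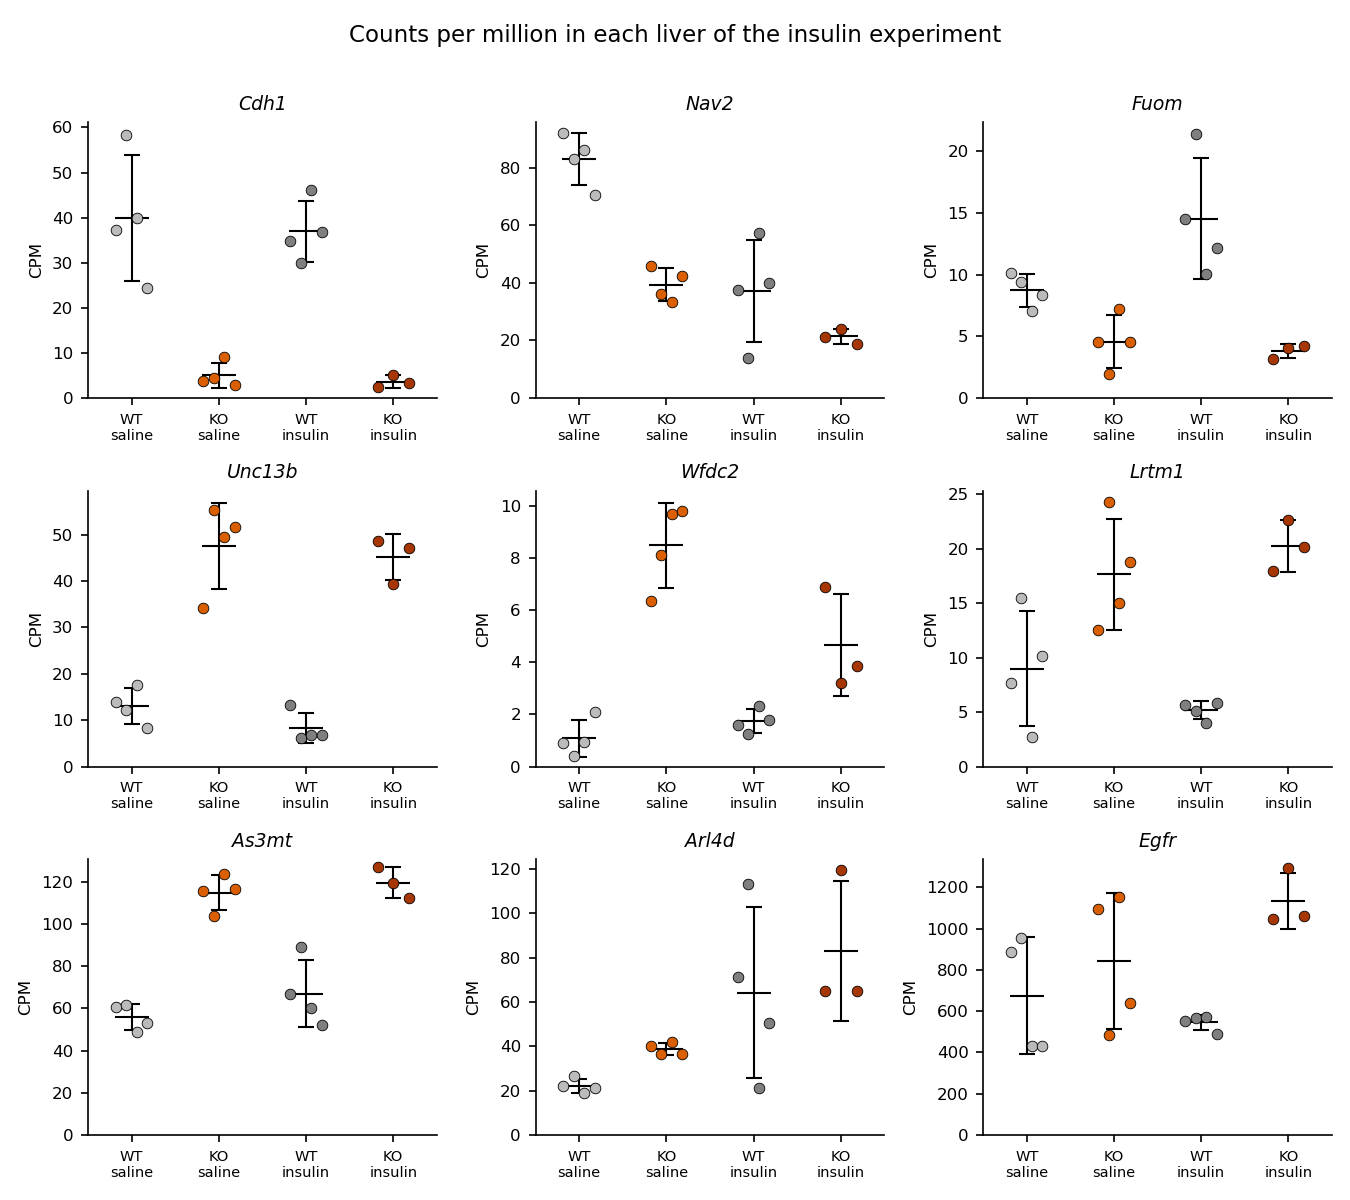
Level of each of the 9 genes as library-scaled counts (CPM) in every liver of the insulin experiment, points for livers and bars for the mean and SD of 4 livers (3 for knockout with insulin). Cdh1 in knockout livers lay between 2.498 and 9.03 CPM, under all WT livers, whereas Arl4d with insulin ran from 21.4 to 113 CPM in WT and overlapped the knockout.

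The 9 genes were called the most altered by loss of ERRα. Their place in the contrast that chose them is a description and does not test that name. In a fit of all 15 livers, 14670 genes were ranked by the p of the knockout effect averaged over saline and insulin. Esrra had rank 1, Cdh1 2, Unc13b 3 and As3mt 5, Wfdc2 had rank 10, Fuom 32 and Lrtm1 42. Nav2 had rank 118, Egfr 427 and Arl4d 1284. By the distance between the groups, taken as the smaller of both treatments, the same 4 genes were among the first 15 (Cdh1 2, Unc13b 3, Wfdc2 6 and As3mt 11), and the other 5 ranked from 187 to 5549. Groups stood apart in 1 direction under both treatments for 4 of the 9, against 1.03% of all genes (151), and nothing is read from that share, since the contrast chose the genes. The order of the first 15 by p also held Atp5o (rank 4), Atp5g1 (6), Atp5c1 (8), Ifi27 (9), Ndufaf4 (11), Ndufv1 (12), Cox7b (13), Sdhd (14) and Ndufa5 (15), with 1 predicted gene left unnamed. Apart from Ifi27, these named genes belong to the respiratory chain, ATP synthase or their assembly and were lower in ERRα-/- livers by -1.03 to -0.60 on the log2 scale. Outside the 9, genes with an edgeR adjusted p under 0.05 included Esrra under both treatments, Mfsd2a, Atp5o and 2310061I04Rik with saline and Ifi27 and Atp5g1 with insulin. Of all genes, 11.3% with saline and 9.99% with insulin differed by 1.2 times or more at an unadjusted p below 0.05 between ERRα-/- and WT livers, and 0.0816% and 0.0585% passed the adjusted threshold.

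Stability between saline and insulin differed between the genes. As the difference of the log2 knockout effect with insulin from that with saline, As3mt had -0.20 ± 0.20 (SE), Nav2 0.28 ± 0.39, Cdh1 -0.36 ± 0.47 and Arl4d -0.44 ± 0.49. Each of these was about as large as its error or smaller. For Unc13b it was 0.58 ± 0.35, for Egfr 0.74 ± 0.41 and for Lrtm1 0.99 ± 0.50, that is, a larger knockout difference with insulin. Fuom had -0.996 ± 0.44, a larger deficit with insulin, and Wfdc2 had -1.55 ± 0.54, a smaller excess. These are differences of the contrasts that chose the genes and carry no test. In each of the 9 genes the mean difference had 1 sign under both treatments.

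Per kilobase of exon, a scale that allows levels of different genes to be compared, Egfr was the highest in WT livers with saline, at 59.6 CPM per kb. As3mt (17.5) and Arl4d (16.04) came next and overlapped, then Cdh1 (8.75), Fuom (2.66) and Nav2 (2.58), the last pair overlapping. Lrtm1 (1.13), Wfdc2 (0.951) and Unc13b (0.573) were the lowest, and each overlapped its neighbour in the order. In ERRα-/- livers with saline Egfr (74.4), As3mt (35.7) and Arl4d (28.1) were again the highest, while Cdh1 was the last at 1.10 CPM per kb, after Nav2 (1.22), whose range it overlapped. In ERRα-/- livers with insulin the order from the top was Egfr (100.1), Arl4d (60.2) and As3mt (37.2), and Nav2 (0.665) was the lowest, overlapping Cdh1 (0.797). In WT livers with insulin Egfr (48.1) and Arl4d (46.4) overlapped at the top, and Unc13b (0.364) was the lowest.

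The effect of insulin on the 9 genes was tested in each genotype with edgeR (quasi-likelihood), its p adjusted over all genes by the method of Benjamini and Hochberg. The livers are those that chose the genes, so the p-values and shares in both genotypes are not independent of that choice. In WT livers, Arl4d rose and Nav2 fell. Arl4d had a log2 fold change of 1.53 (95% confidence interval 0.70 to 2.37, edgeR adjusted p = 0.0561). WT replicate 3 with insulin, at 21.4 CPM, stayed inside the range of the saline livers, while the other 3 were at 50.7 CPM or more. Nav2 had -1.16 (-1.85 to -0.47, edgeR adjusted p = 0.0796), with all 4 insulin livers under all 4 saline livers. Fuom had 0.74 (0.23 to 1.24, edgeR adjusted p = 0.125), and without insulin replicate 2 it had 0.49; 3 of the 4 insulin livers were above all saline livers. Unc13b had -0.66 (-1.28 to -0.04, edgeR adjusted p = 0.257). These 4 of 9 changed by 1.2 times or more at an unadjusted p below 0.05, against 17.2% of all genes (2322 of 13463). At an adjusted p under 0.05 by edgeR there were 0 of 9, against 3.16% of all genes (425), and by DESeq2 there were 3 of 9, Nav2, Fuom and Arl4d, with 942 genes in all. With each library left out in turn, the edgeR adjusted p ran from 0.0248 to 0.181 for Nav2 and from 0.00728 to 0.165 for Arl4d. The Unc13b call was lost without WT saline replicate 1 (-0.63), 2 (-0.68) or 3 (-0.47) and without insulin replicate 2 (-0.54), 3 (-0.57) or 4 (-0.57). Calls appeared for Wfdc2 without saline replicate 4 (1.21, where the value with all samples was 0.68) and for Lrtm1 without saline replicate 3 (-1.10, against -0.80), while without saline replicate 2 they had 0.42 and -0.40.

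In ERRα-/- livers insulin gave -0.88 for Nav2 (-1.19 to -0.57, edgeR adjusted p = 0.0122) and 1.09 for Arl4d (0.66 to 1.53, edgeR adjusted p = 0.0190). For both genes all 3 insulin livers were outside the range of the 4 saline livers. Wfdc2 had -0.87 (-1.47 to -0.26, edgeR adjusted p = 0.121); 2 of the 3 insulin livers were under all saline livers. These 3 of 9 passed the unadjusted rule, against 17.2% of all genes (2353 of 13684), and 2 of 9 the adjusted threshold, against 2.91% of all genes. Over the libraries left out in turn, edgeR's adjusted p ranged from 0.00525 to 0.0761 for Nav2 and from 0.0171 to 0.0509 for Arl4d. Calls appeared for Lrtm1 without saline replicate 2 (0.39, against 0.19) and for Egfr without saline replicate 3 (0.61, against 0.42), while Lrtm1 had 0.06 without saline replicate 1 and Egfr 0.24 without saline replicate 2. In this contrast all 5 acinar markers of pancreas were lower with insulin, at a median of -5.57, and their part in it was not tested.

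Nav2 and Arl4d had the same direction under insulin in both genotypes, and for both the knockout had that direction too: Nav2 was lower with insulin and lower in ERRα-/- livers, and Arl4d was higher with insulin and higher in ERRα-/- livers. The insulin contrasts and the knockout contrasts share their samples, so these values are side by side and not independent. For Cdh1, the gene with the lowest knockout ratio, insulin gave -0.11 (-0.62 to 0.39) in WT and -0.48 (-1.34 to 0.39) in ERRα-/- livers, and for As3mt 0.26 (-0.11 to 0.62) and 0.05 (-0.17 to 0.28). Without saline replicate 3 the value of Cdh1 in ERRα-/- livers was -0.03, and without insulin replicate 2 it was -0.81. In WT livers As3mt had 0.09 without insulin replicate 2, the library with the low mitochondrial share, and Cdh1 turned to 0.13 without saline replicate 2. Neither gene passed the threshold in either genotype, and the intervals bound the change that could have been missed.

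**Figure D2:**
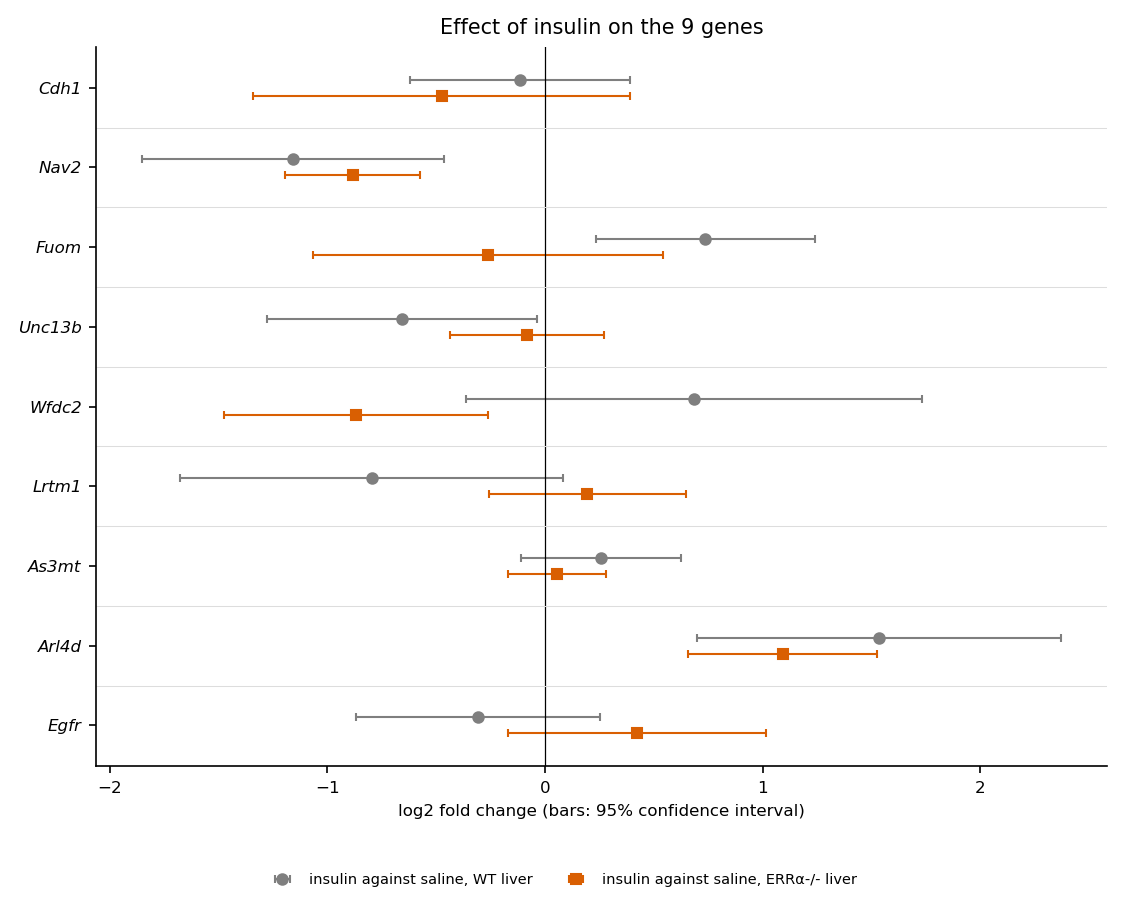
Log2 fold change of insulin against saline for the 9 genes in WT and ERRα-/- livers, with 95% confidence intervals from edgeR. The intervals of Nav2 lie under 0 and those of Arl4d above 0 in both genotypes, and Wfdc2 has 0.68 in WT and -0.87 in ERRα-/- livers.

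Whether ERRα3SA moves the 9 genes in the direction opposite to the knockout was asked in liver and muscle of that experiment. In liver, the knock-in and WT groups overlapped for all 9. Cdh1 was at 45.2, 61.5, 89.5 and 75.9 CPM in WT littermates and 77.3, 59.7, 45.2 and 131 CPM in ERRα3SA livers, with the highest value in replicate 4. Unc13b was at 8.49, 13.7, 12.2 and 15.9 CPM and 10.9, 10.1, 9.31 and 28.7 CPM, again with replicate 4 far above the rest. Wfdc2 was at 3.32, 2.73, 2.10 and 3.43 CPM and 2.87, 2.45, 4.02 and 1.25 CPM, with replicate 4 the lowest. As3mt stood at 43.6, 36.1, 37.2 and 36.5 CPM in WT and 39.0, 34.7, 51.0 and 37.6 CPM in ERRα3SA livers, with WT replicate 1 and ERRα3SA replicate 3 above the others of their groups. Lrtm1 varied widely, 25.6, 19.7, 8.44 and 6.33 CPM in WT and 11.8, 9.15, 14.0 and 1.64 CPM in ERRα3SA livers. Fuom varied the least, 15.6 to 17.4 CPM in WT and 16.2 to 17.1 CPM in ERRα3SA livers. Nav2 ranged from 44.2 to 56.2 and from 45.0 to 60.4 CPM, Arl4d from 18.2 to 32.0 and from 13.2 to 46.7 CPM, and Egfr from 302 to 857 and from 308 to 898 CPM, WT first.

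By edgeR's quasi-likelihood test, 0 of the 9 passed the unadjusted rule in ERRα3SA liver, against 4.88% of all genes (651 of 13339, with 996 at an unadjusted p under 0.05), and 0 passed by DESeq2. No gene of the 13339 had an adjusted p under 0.05 by edgeR, that is 0%, and 43 had by DESeq2. The log2 fold changes were opposite in sign to the knockout for 5 of the 9: Cdh1 0.21 (-0.49 to 0.91), Nav2 0.03 (-0.20 to 0.27), Fuom 0.04 (-0.11 to 0.20), Wfdc2 -0.13 (-0.82 to 0.56) and Lrtm1 -0.72 (-1.997 to 0.56). They had the sign of the knockout for Unc13b 0.24 (-0.57 to 1.04), As3mt 0.08 (-0.18 to 0.35), Arl4d 0.15 (-0.58 to 0.87) and Egfr 0.04 (-0.83 to 0.91). Without ERRα3SA replicate 4 the signs of Cdh1 (-0.16), Nav2 (-0.05), Unc13b (-0.31), Wfdc2 (0.10) and Egfr (-0.21) turned, and 4 of the 9 were opposite to the knockout. Without ERRα3SA replicate 1, the liver with the highest sum of acinar markers in that experiment, Arl4d (-0.26) turned and 6 of the 9 were opposite. Without WT replicate 1, Lrtm1 went to -0.33. In this contrast 3 of 6 cholangiocyte markers tested, Krt19, Krt7 and Epcam, were lower in ERRα3SA livers, where the list summed to 65.9, 49.9, 59.8 and 80.2 CPM against 65.7, 64.8, 63.1 and 65.0 CPM, and their part in the values of Cdh1 was not tested.

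In muscle 8 of the 9 could be tested, since Wfdc2 was at 0 counts in all 4 ERRα3SA muscles and at 0 to 3 counts in WT. Cdh1 was the exception among them. Its level was 1.79, 1.46, 0.985 and 1.03 CPM in WT muscles, or 26 to 51 counts, and 0.562, 0.561, 0.388 and 0.575 CPM in ERRα3SA muscles, or 10 to 18 counts. All 4 ERRα3SA muscles were under all 4 WT muscles, a log2 fold change of -1.31 (-1.995 to -0.62, adjusted p = 0.683 by edgeR), which is the direction of the knockout in liver and not the opposite. It was 1 of 8 that passed the unadjusted rule, against 4.54% of all genes (639 of 14081, with 672 at an unadjusted p under 0.05); 0 of 8 passed an adjusted p under 0.05, as did 0 genes in all by edgeR and 56 by DESeq2. Left out in turn, the libraries gave -1.42 to -1.11. In the same contrast 4 of 4 tested markers of Schwann cells and nerve were lower in ERRα3SA muscles, at a median of -0.78. Their sums were 68.8, 96.9, 124.8 and 132.4 CPM, against 275.1, 200.5, 203.3 and 190.3 CPM in WT muscles. In ERRα3SA liver 0 of 3 tested passed the rule. The part of these markers in the Cdh1 value was not tested. In a fit that takes the 16 samples as independent, the tissue difference of the ERRα3SA effect on Cdh1, muscle minus liver, was -1.54 (-2.59 to -0.50, edgeR adjusted p = 0.720), 1 of 9 that passed the unadjusted rule in that test, against 5.57% of all genes (874 of 15688, with 881 at an unadjusted p under 0.05), and 0 of 9 passed the adjusted threshold, with 0 genes by edgeR and 25 by DESeq2. Without liver replicate 4 of ERRα3SA that difference was -1.16, and Unc13b (0.63) passed the unadjusted rule too. Wfdc2 entered this fit through its liver counts, with at most 3 counts in any muscle, and nothing is read from its values there.

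Of the 8 in muscle, Fuom 0.19 (-0.17 to 0.56), Lrtm1 -0.11 (-0.64 to 0.42), As3mt -0.07 (-0.30 to 0.16) and Egfr -0.04 (-0.49 to 0.42) were opposite in sign to the knockout, and Cdh1, Nav2 -0.18 (-0.51 to 0.16), Unc13b 0.32 (-0.13 to 0.77) and Arl4d 0.19 (-0.78 to 1.16) were not. Nav2 went to -0.06 without ERRα3SA replicate 4, and without ERRα3SA replicate 2 Fuom had 0.10 and Arl4d 0.04. Arl4d in ERRα3SA muscles was at 0.675, 3.73, 3.62 and 3.29 CPM against 2.67, 3.40, 2.08 and 2.10 CPM in WT, and replicate 1, the library rich in mitochondrial counts, was the low one. Without it Arl4d had 0.50 (edgeR adjusted p = 0.182) and Fuom 0.32 (edgeR adjusted p = 0.115), and with Cdh1 3 of 8 passed the unadjusted rule, where 2506 genes in all passed it and 464 had an adjusted p under 0.05. Without replicates 1 and 4, an exclusion chosen after seeing the data, Egfr (-0.37) passed as well, 4 of 8, with 2597 genes in all by the unadjusted rule and 1505 by the adjusted threshold.

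**Figure D3:**
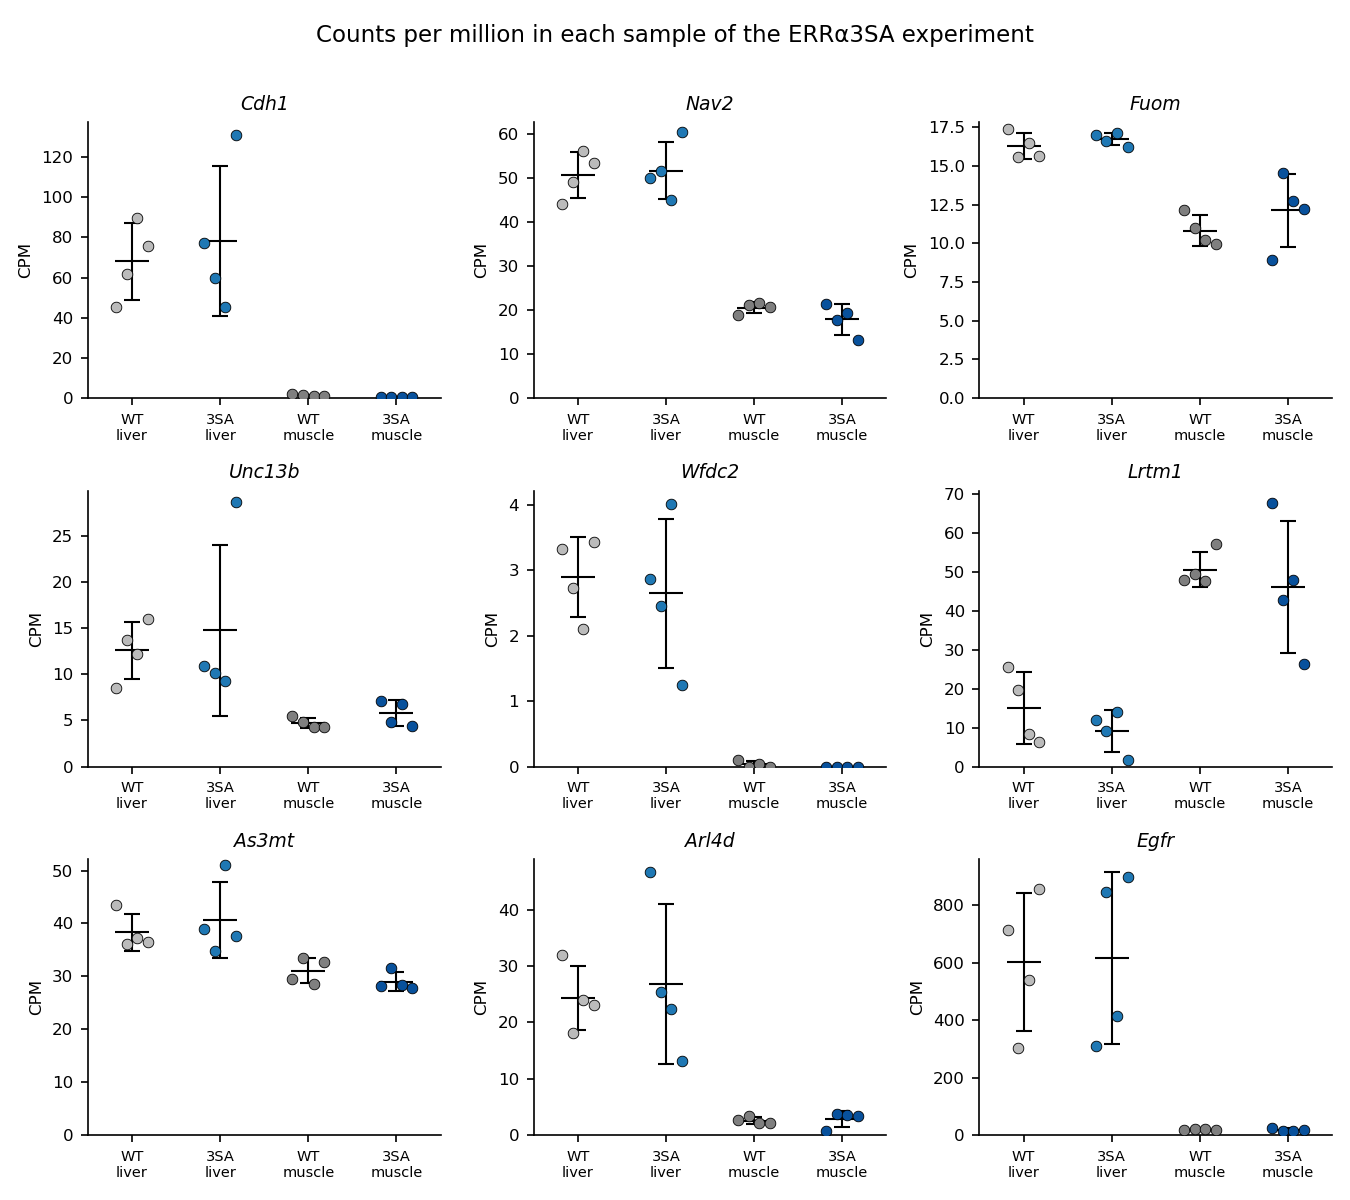
Level of each gene in CPM in every sample of the ERRα3SA experiment, points for samples and bars for the mean and SD of 4 samples. Liver groups overlap for each gene, the ERRα3SA muscles hold 0.388 to 0.575 CPM of Cdh1 against 0.985 to 1.79 CPM in WT, and Lrtm1 has its higher levels in muscle.

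**Figure D4:**
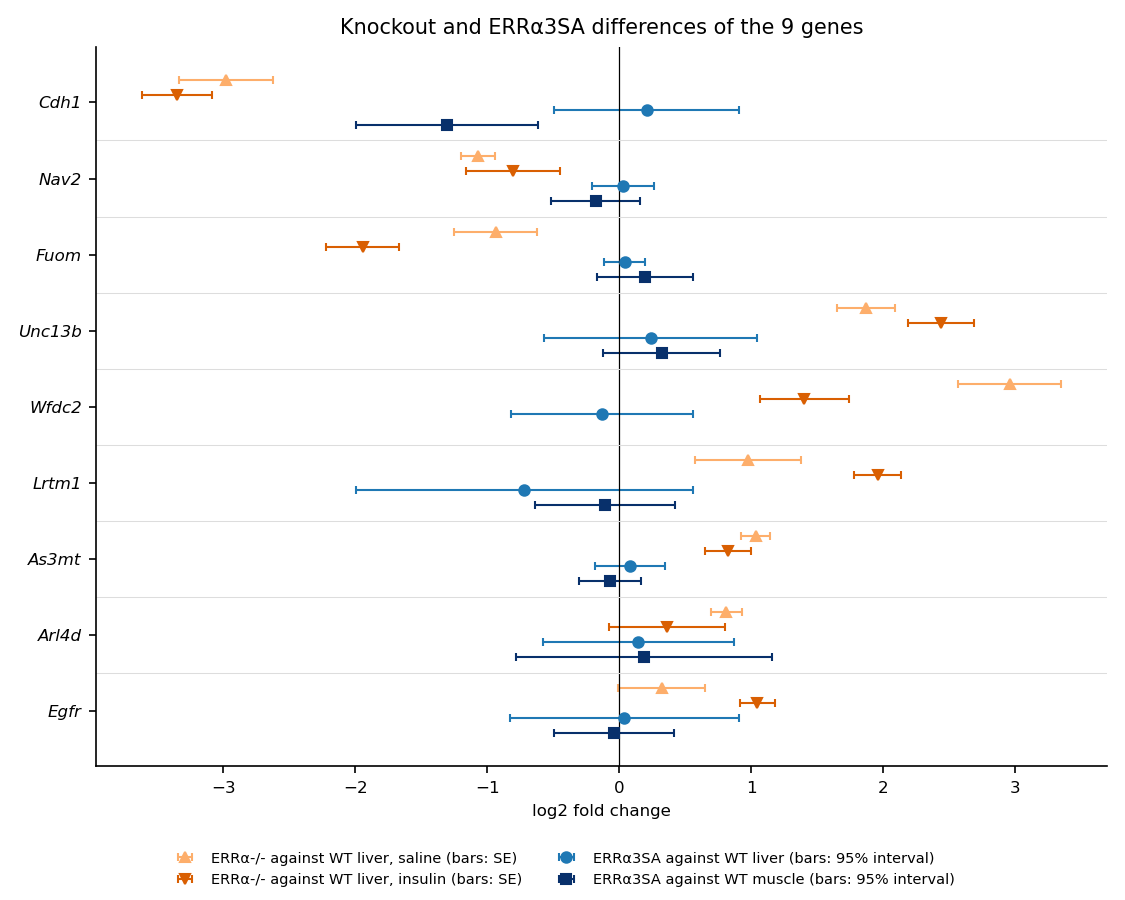
Log2 fold change of each gene for knockout against WT liver with saline and with insulin (bars for the SE) and for ERRα3SA against WT in liver and muscle (bars for the 95% confidence interval); Wfdc2 was not tested in muscle. The liver values of ERRα3SA lie between -0.72 and 0.24 and the knockout values between -3.35 and 2.96.

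Between tissues, the order of levels per kilobase differed. In WT littermate liver Egfr (53.2 CPM per kb), Arl4d (17.6), Cdh1 (14.9) and As3mt (11.9) were the highest, of which Arl4d overlapped Cdh1 and Cdh1 overlapped As3mt. Fuom (4.98) followed, then Wfdc2 (2.54), Lrtm1 (1.89) and Nav2 (1.58), each overlapping the next, and Unc13b (0.553) was the lowest. In WT muscle As3mt (9.67) and Lrtm1 (6.35) led, followed by Fuom (3.31), by Arl4d (1.85) and Egfr (1.63), which overlapped, and by Nav2 (0.638). Cdh1 (0.288) and Unc13b (0.207) overlapped, and Wfdc2 (0.0314) was the lowest. ERRα3SA samples had the same order in muscle except that Unc13b (0.255) stood above Cdh1 (0.114), and in liver except that Nav2 (1.60) stood above Lrtm1 (1.15), which it overlapped.

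The genes most like each of the 9 over the 15 livers of the insulin experiment were named by Pearson's r of log2 CPM, as a description. The livers fall into groups that differ by genotype, so r is also given after removal of the group means and over the 8 livers of the ERRα3SA experiment. For As3mt the most alike gene was Cyp17a1, with r = 0.95 (Spearman 0.954), 0.81 within groups and 0.83 in the other livers. For Arl4d it was Ddit4, a gene of the stress and hormone response, with 0.93 (0.946), 0.82 and 0.68. Unc13b ran against Atp5a1, a subunit of ATP synthase, with -0.93 (-0.921), -0.38 and -0.92, and against Mdh1 with -0.93 (-0.893), -0.45 and -0.89. Cdh1 went with Micall1 at 0.94 (0.832), 0.80 and 0.35, and Nav2 with Cyp2u1 at 0.93 (0.921), 0.73 and 0.17. Fuom went against Zfp979 at -0.93 (-0.914), -0.77 and 0.50, Wfdc2 against Fanca at -0.87 (-0.875), -0.59 and -0.31, Lrtm1 against Ero1l at -0.85 (-0.936), -0.63 and -0.73, and Egfr against Khdrbs3 at -0.92 (-0.782), -0.90 and -0.40. By Spearman's measure the livers of the ERRα3SA experiment gave 0.548 for As3mt and Cyp17a1, 0.643 for Arl4d and Ddit4, -0.929 and -0.690 for Unc13b with Atp5a1 and Mdh1, 0.405 for Cdh1, 0.119 for Nav2, 0.405 for Fuom, -0.452 for Wfdc2, -0.286 for Lrtm1 and -0.524 for Egfr with the genes just named. The next in line, with r over the 15 livers, within groups and in the other livers, were Ifi27 for Cdh1 (-0.89, -0.11 and -0.03), Cct6a for Nav2 (-0.92, -0.72 and 0.34), Ndufv2 for Fuom (0.92, 0.73 and 0.66), Sytl5 for Wfdc2 (0.86, 0.67 and 0.78), Dld for Lrtm1 (-0.84, -0.32 and 0.55), Htatip2 for As3mt (0.94, 0.78 and 0.497), Pex16 for Arl4d (0.93, 0.83 and 0.67) and Hes6 for Egfr (-0.91, -0.89 and -0.195).

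Cyp17a1 was also found by position. It encodes a steroid hydroxylase and lyase and starts 34286 bases from As3mt. With saline its level was 49.3, 80.2, 22.6 and 35.6 CPM in WT and 263, 184, 482 and 186 CPM in ERRα-/- livers, and with insulin 78.5, 177, 57.8 and 58.2 CPM and 269, 426 and 179 CPM. All ERRα-/- livers were above all WT livers of either treatment, although ERRα-/- replicate 4 with insulin and WT replicate 2 with insulin were close. The log2 fold change was 2.57 ± 0.41 (SE) with saline and 1.64 ± 0.41 with insulin. Likeness to As3mt over the same livers had already picked Cyp17a1, so these values are a description and carry no test. Among the genes within 100 kb of the 9, 3 of 32 tested passed the unadjusted rule with saline and 3 of 33 with insulin in the knockout contrasts, against 11.3% and 9.99% of all genes. With saline these were Cyp17a1, Borcs7 near As3mt (0.49) and Fam214b near Unc13b (-0.50), and with insulin Cyp17a1, Fam214b (-0.64) and Nbr1 near Arl4d (0.55). Insulin itself moved 7 of 31 in WT and 6 of 33 in ERRα-/- livers, against 17.2% of all genes in each, among them Cnnm2 near As3mt (0.92 and 0.93, edgeR adjusted p = 0.0191 and 0.0251). ERRα3SA moved 1 of 31 in liver, Cnnm2 (0.31), and 2 of 30 in muscle, against 4.88% and 4.54% of all genes.

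**Figure D5:**
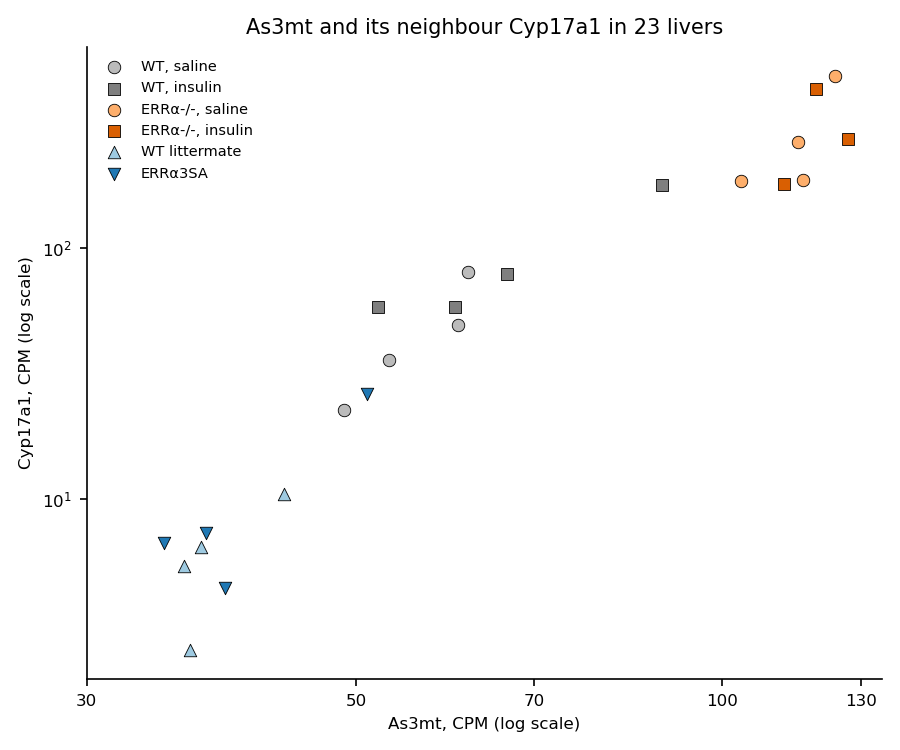
Level of Cyp17a1 against that of As3mt, both in CPM on log axes, in the 15 livers of the insulin experiment and the 8 livers of the ERRα3SA experiment, 1 point a liver. Knockout livers lie at 104 CPM of As3mt or more and at 179 CPM of Cyp17a1 or more; the experiments were scaled apart.

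Gene lists around the 9 were counted by the same unadjusted rule, which 11.3% of all genes passed for loss of ERRα with saline, 9.99% with insulin, 17.2% for insulin in either genotype, 4.88% for ERRα3SA in liver and 4.54% in muscle. Of the genes of adherens and tight junctions other than Cdh1, insulin lowered 11 of 22 tested in WT livers. Their median was -0.33, against 0.00 for all genes. In ERRα-/- livers insulin lowered 6 of 23, and Nectin2 (0.35) rose. Cldn3, a claudin of tight junctions, had -1.02 (edgeR adjusted p = 0.00265) in WT and -1.29 (edgeR adjusted p = 0.00396) in ERRα-/- livers, and Cldn2 had -0.51 and -1.15. Loss of ERRα went with 3 of 22 higher with saline (Cldn14 0.75, Cldn2 0.58 and Cldn3 0.30) and 5 of 23 higher with insulin, none lower in either, and the list had 0 calls in ERRα3SA liver and muscle. Of the ligands, receptors and adaptors of EGFR, insulin raised 5 of 18 in ERRα-/- livers, with Erbb3 at 0.99 (edgeR adjusted p = 0.00328), and 0 of 17 in WT. Between ERRα-/- and WT livers with saline, 1 of 18 was higher, Nrg4 (1.29), a ligand of the ErbB family, and 0 were lower. With insulin 1 of 17 was higher, Nrg4 (1.13), and 1 was lower, Btc (-1.07). All genes passed at 11.3% and 9.99%, and 0 of this list had an edgeR adjusted p under 0.05 in either knockout contrast. In ERRα3SA that list had 0 calls in either tissue. Among genes of vesicle priming, insulin raised 4 of 15 in WT, Vamp2 (0.46), Vamp8 (0.39), Doc2b (1.73) and Rab27a (0.79), and in ERRα-/- livers it raised Doc2b (1.56) and lowered Rab3d (-0.54); with loss of ERRα, Vamp8 (0.29) was higher with saline and 0 of 15 differed with insulin, and ERRα3SA had 0 calls.

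Around the enzymes, among 18 tested genes of methyl donors and arsenic handling, those higher in ERRα-/- livers with saline included Nnmt (1.10), Gamt (0.49) and Gnmt (0.52). With insulin 1 was higher, Mat1a (0.44), and 2 were lower, Mat2a (-0.49) and Gclc (-0.60). In WT livers the genes that insulin moved included Nnmt (1.17), which rose, and the glycerol and arsenite channel Aqp9 (-0.50, edgeR adjusted p = 0.0374), which fell; in ERRα-/- livers it lowered 3 of 18, Aqp9 (-0.57), Mat2a (-0.66) and Gclc (-0.38), and raised Ahcyl1 (0.31). ERRα3SA gave 0 of 19 in liver and Gnmt (0.83) in muscle. Of the genes of fucose handling, 0 of 13 differed with loss of ERRα under either treatment or with insulin in WT, Pofut1 (-0.38) fell with insulin in ERRα-/- livers, and with ERRα3SA 0 of 12 differed in liver and Fut4 (0.67) in muscle. Of 4 tested inhibitors with whey acidic protein domains other than Wfdc2, Slpi (1.65) rose with insulin in WT and Wfdc17 (-1.25) was lower in ERRα-/- livers with insulin, with 0 calls in the other comparisons. Among paralogs, Arl4a rose with insulin as Arl4d did, by 1.23 (edgeR adjusted p = 0.00280) in WT and 0.59 (edgeR adjusted p = 0.0312) in ERRα-/- livers, but was lower in ERRα-/- than in WT livers with insulin (-0.43). The list had 2 of 9 calls with insulin in WT, Cdh2 (-0.38) being the other, 2 of 10 in ERRα-/- livers, Erbb3 being the other, 0 of 9 with loss of ERRα and saline, and 0 with ERRα3SA.

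For comparison, of 12 tested genes known from other work as targets of ERRα, 7 were lower and 1 was higher in ERRα-/- livers with saline and 8 were lower with insulin, with medians of -0.34 and -0.48. Cycs, the cytochrome c gene, had -0.44 and -0.90, and Pdk4 (0.73) was the higher one. Insulin raised 3 of 12 in each genotype, Pdk4 the most (2.54 in WT, edgeR adjusted p = 0.0150, and 1.417 in ERRα-/- livers, edgeR adjusted p = 0.0364). With ERRα3SA, 1 of 12 was higher in liver, Pdk4 (0.87, edgeR adjusted p = 0.639), and 1 of 13 in muscle, Cycs (0.66, edgeR adjusted p = 0.725). By edgeR 0 genes passed the adjusted threshold in either ERRα3SA tissue, which holds for the ERRα3SA values of all lists. Among 9 periportal genes, Cyp2f2 (-0.64) was lower in ERRα-/- livers with saline, and Pck1 (0.77) and Hal (0.57) were higher with insulin; insulin in WT raised Sds (1.13) and lowered Pck1 (-0.45) and Hal (-0.59), insulin in ERRα-/- livers gave 0 of 9, and ERRα3SA lowered Sds (-0.64) in liver. Of 9 pericentral genes, Lhpp (0.77) and Oat (0.66) were higher in ERRα-/- livers with saline and Slc1a2 (0.65), Oat (0.61) and Glul (0.35) with insulin. Insulin lowered Lgr5 in both genotypes (-1.93 and -1.38) and Glul in WT (-0.44), and raised Lhpp (0.51) in WT and Slc1a2 (0.36) in ERRα-/- livers, and ERRα3SA lowered Cyp1a2 (-0.40) in liver. Of 9 male-biased liver genes, 3 were lower in ERRα-/- livers with saline, Hsd3b5 (-2.39), Cyp7b1 (-1.23) and Cyp4a12b (-0.76), and with insulin 1 was lower and 1 higher. Insulin raised 5 of them in ERRα-/- livers and lowered 1 in WT, and ERRα3SA raised Cyp4a12a (0.56) in liver. Of the female-biased genes few were expressed: A1bg (2.06) was among those higher in ERRα-/- livers with saline, 0 of 5 differed with insulin, insulin lowered 3 of 6 in ERRα-/- livers and 0 of 3 in WT, and ERRα3SA moved 0 of 2 in liver. No test of a list against other genes was made.

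Markers of other cell types were compared between ERRα-/- and WT livers by the same rule. With saline, Tat of 8 hepatocyte markers was higher, Adgre1 and Vsig4 of 7 macrophage markers, Kdr of 6 endothelial markers and Col1a1 of 6 stellate cell and fibroblast markers were lower, and Adrb3 of 4 tested adipocyte markers, whose median was 0.81, was higher. With insulin, Cps1, Marco, Cdh5 and Adrb3 were higher, Myh4 of 5 tested markers of skeletal muscle fibres was lower (0 of the 6 could be tested with saline), and all 5 acinar markers were lower at a median of -5.26. Lymphocyte markers summed to under 3 CPM in each of the 15 livers and could hardly be tested, 0 of 6 with saline and 2 of 6 with insulin, at a median of -1.08. Of cholangiocyte markers 0 passed the rule under either treatment. The sum of the muscle fibre markers was 3.45, 0.340, 105 and 0.237 CPM in WT and 9.08, 0.713 and 0.271 CPM in ERRα-/- livers with insulin, high in WT replicate 3. The part of these markers in the values of the 9 genes was not tested.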

How the data were processed

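RNA-seq of 31 samples was analysed, 15 livers from the experiment with saline or insulin in WT and ERRα-/- mice and 16 livers and muscles of ERRα3SA mice and WT littermates. The deposited tables hold unnormalized counts for each gene. To obtain these counts the authors mapped read pairs on mm10 using STAR. Strand use in counting is not stated. Ensembl identifiers were joined to symbols, positions and exon lengths of GENCODE vM21 on GRCm38.

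Each comparison was fitted on its own groups in R 4.3.3 with edgeR 4.0.16 (limma 3.58.1), using TMM scaling, filterByExpr and the quasi-likelihood test, with p adjusted by Benjamini and Hochberg's method over all genes. The unadjusted rule is p below 0.05 with a change of 1.2 times or more. CPM used TMM library sizes, and log2 CPM a prior count of 2. DESeq2 1.42.0 was the alternative test, and scaling, filter, groups in the fit, a replicate block and each library left out were also varied. Tables and figures were made in Python 3.11.15 with pandas 2.3.3, numpy 2.4.6 and matplotlib 3.10.9.

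The 9 genes, the gene lists and the markers were chosen with earlier results of these data known. The contrast of knockout with WT liver chose the 9 genes, so it is described by levels, log2 fold changes, standard errors and ranks, as is its difference between treatments. The test of the tissue difference treats the 16 samples of the ERRα3SA experiment as independent. Other genes are named because they led a ranking, were most alike, lay within 100 kb or passed the rule in a list. The pipeline was tested on simulated data, in which DESeq2 made more false calls than edgeR.

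Samples of the insulin experiment had 35871419 to 48317108 counts, and those of the ERRα3SA experiment 20481405 to 33412022. Replicates within a group differed by a chi-square of at least 6.3 per degree of freedom, so none were merged. Replicate 3 of the knockout livers with insulin is not among the deposited columns. PCR duplicates could not be removed from counts, and the confidence intervals rest on the spread between samples. Results of some genes are left out and not reported here. The other data types of the study were not analysed here.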

Additional observations from a re-analysis of the deposited data

Results flagged for a closer look

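In 7 of 68 sets of a gene and a group of 4 samples, 1 sample stood apart by Dixon's ratio, where about 1 in 20 would by chance. Esrra was at 96.4 CPM in WT liver with insulin replicate 2, the library with the low mitochondrial share, against 53.7, 56.1 and 59.0 CPM. Unc13b was at 13.2 CPM in WT liver with insulin replicate 1 and at 28.7 CPM in ERRα3SA liver replicate 4, which also had low Alb and high Saa1 levels. As3mt was at 43.6 CPM in WT littermate liver replicate 1 and at 31.7 CPM in ERRα3SA muscle replicate 2. Cdh1 was at 0.388 CPM in ERRα3SA muscle replicate 3, on few counts, and Arl4d was at 0.675 CPM in ERRα3SA muscle replicate 1, the library rich in mitochondrial counts. The ERRα3SA effect on Cdh1, muscle minus liver, was estimated at -1.54 on the log2 scale (edgeR adjusted p = 0.720). It rests on 10 to 18 counts in ERRα3SA muscles. It passed the unadjusted rule, as did 5.57% of all genes, and 0 genes passed the adjusted threshold by edgeR. Markers of Schwann cells and nerve were also lower in ERRα3SA muscle, 4 of 4 tested, and 0 of 3 passed the rule in liver. In bulk muscle, fewer cells of a type and less RNA per cell cannot be told apart. The cause of these values was not tested.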

How the results depend on the processing

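The numbers of genes passing a threshold depended on the method and on single libraries, and the cause was not tested. With DESeq2 the genes with an adjusted p under 0.05 numbered 254 for knockout with saline, 248 for knockout with insulin, 942 for insulin in WT, 1013 for insulin in ERRα-/- livers, 43 for ERRα3SA liver, 56 for ERRα3SA muscle and 25 for the tissue difference. Without the filter on low counts they numbered 30 for knockout with saline, 31 for knockout with insulin and 640 for insulin in ERRα-/- livers, with 2 in ERRα3SA liver and 1 for the tissue difference; the unadjusted rule then gave 1050 genes in ERRα3SA liver, 1071 in muscle and 2 of the 9 genes for the tissue difference. With 4 groups in a single fit the adjusted counts were 96 for knockout with insulin, 766 and 262 for insulin in WT and ERRα-/- livers and 2 in ERRα3SA muscle, where 1013 genes and 2 of the 9 passed the unadjusted rule. A replicate block gave 334 genes in ERRα3SA muscle and reversed Fuom for insulin in ERRα-/- livers (0.13) and Egfr in ERRα3SA liver (-0.0209); within a tissue, the deviations of same-numbered samples from their group means correlated by -0.181 to 0.241, and no comparison had all its pairs over 0.1. Nearest to the sample of its own number were 3 of 4 for knockout with saline, 2 of 3 with insulin, 2 of 4 for insulin in WT, 0 of 3 in ERRα-/- livers, 1 of 4 in ERRα3SA liver and 0 of 4 in muscle. Livers and muscles were also paired by number, although no label names the mouse; the deviations of such pairs correlated by -0.0880 to 0.0845 in ERRα3SA and 0.0198 to 0.0410 in WT mice, with 1 of 4 and 3 of 4 muscles nearest to the liver of their own number. A replicate block within genotype, chosen after seeing the data, gave 623 genes by the unadjusted rule for the tissue difference, where the fit without it gave 874, and 0 by the adjusted threshold, and 1 of the 9 passed again, Cdh1 with -1.51. Leaving out each library in turn gave adjusted counts of 2 to 47 for knockout with saline and 3 to 48 for knockout with insulin (818 to 1778 by the unadjusted rule). For insulin they were 105 to 409 in WT (425 with all samples) and 42 to 608 in ERRα-/- livers. In ERRα3SA muscle they were 0 to 464 (378 to 2506 by the unadjusted rule, 1 to 3 of the 8 tested). For the tissue difference they were 0 to 369 (710 to 2766, 1 to 3 of the 9). There, all counts of listed genes above 1 held Wfdc2, and nothing is read from its calls. Signs turned within these ranges: insulin in WT, Cdh1 -0.29 to 0.13; insulin in ERRα-/- livers, Fuom -0.51 to 0.0497 and Unc13b -0.21 to 0.00648; ERRα3SA liver, Cdh1 -0.16 to 0.40, Nav2 -0.0544 to 0.0913, Unc13b -0.31 to 0.40, Wfdc2 -0.40 to 0.10, As3mt -0.0445 to 0.15, Arl4d -0.26 to 0.37 and Egfr -0.21 to 0.26; ERRα3SA muscle, Lrtm1 -0.34 to 0.0844 and Egfr -0.26 to 0.0660; tissue difference, Unc13b -0.0849 to 0.63, Arl4d -0.16 to 0.44 and Egfr -0.33 to 0.17. Exclusions of the libraries that stood apart were chosen after seeing the data. They gave 2597 genes by the unadjusted rule and 1505 by the adjusted threshold in ERRα3SA muscle, with 4 of the 8 tested. For the tissue difference they gave 2804 and 548, with 3 of the 9. By Spearman's measure 5 of the 18 most alike genes stayed.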
